A study of Homo sapiens with 6 samples.

Results

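The oncofetal RNA-binding and chromatin genes examined here are 10 listed genes, taken by symbol out of 60483 gene identifiers in each count table: the mRNA-binding proteins IGF2BP1, IGF2BP2 and IGF2BP3, the let-7 regulators LIN28A and LIN28B, the chromatin proteins HMGA1 and HMGA2, and the fetal growth and liver cancer genes IGF2, GPC3 and DLK1. All 10 were found and all 10 passed the filter on low counts. RNA sequencing counts came from HepG2, an established human liver cancer line, transfected with control siRNA (3 libraries) or with FTO siRNA (3 libraries). Both groups were the same line in the same medium with serum, and differed by label only in the siRNA; no sequence, dose or time before harvest is stated for it in these sources. FTO takes the methyl group off N6-methyladenosine (m6A) in RNA, and the question of the series was which genes depend on it in liver cancer cells.

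The genes belong to a fetal program that is shut down in most adult tissues and is often active again in liver cancer. LIN28A and LIN28B bind let-7 precursors and block their maturation; mature let-7 microRNAs bind the mRNAs of HMGA2, LIN28B, IGF2BP1 and others and lower their levels, so that LIN28 and let-7 oppose each other. IGF2BP proteins bind mRNAs, IGF2 and MYC mRNA among them, protect them from decay and are counted among the readers of m6A.

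The let-7 microRNAs are shown because most of the 10 genes carry matches to their seed, bases 2 to 8, printed in capitals. Of the mature miRNAs in the RefSeq table (build GRCh38.p14), 11 share the seed GAGGUAG, and these representatives differ from each other only outside it:
hsa-let-7a-5p: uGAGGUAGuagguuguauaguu
hsa-let-7b-5p: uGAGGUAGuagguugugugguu
hsa-let-7g-5p: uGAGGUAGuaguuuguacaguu
hsa-miR-98-5p: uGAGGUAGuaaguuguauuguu

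Matches were sought on the mRNA strand in the 3′ UTR of 1 transcript per gene (GENCODE 29, the APPRIS principal transcript), as CTACCTC or TACCTCA; where both overlap in one stretch the match is an 8mer and counts once. HMGA2 held 7 matches in 3003 bases of 3′ UTR, IGF2BP1 held 5 in 6206 bases and LIN28B held 5 in 4549 bases. IGF2BP2 held 2, and IGF2BP3, LIN28A and HMGA1 held 1 each. IGF2, GPC3 and DLK1 held none, in 3′ UTRs of 3875, 379 and 3328 bases; this says only that these letters are not in those windows. Among 12493 tested coding genes 16.3% held a match, 3.83% an 8mer, and 25 genes (0.2%) at least 4 matches, in 3′ UTRs with a median of 1092 bases. The 3 members with at least 4 matches are 3 of those 25. The 8mers, with the match in capitals, show the site itself in each of the 6 members that have one, preceded by its position in the 3′ UTR:
HMGA2, base 21: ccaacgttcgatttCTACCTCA
LIN28B, base 44: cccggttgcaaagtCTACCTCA
LIN28B, base 2653: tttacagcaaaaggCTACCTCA
IGF2BP1, base 1632: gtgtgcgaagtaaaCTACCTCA
IGF2BP1, base 4269: agcagtgctagtaaCTACCTCA
IGF2BP1, base 4923: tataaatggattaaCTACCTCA
IGF2BP2, base 1304: acacacagaagaagCTACCTCA
IGF2BP3, base 560: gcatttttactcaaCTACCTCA
LIN28A, base 905: cacagcctattgaaCTACCTCA
A match is a description of the sequence, and let-7 itself was not measured in these libraries.

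Total counts per library lay between 15713279 and 18390953, so that 3 counts, the floor used here, equal 0.163 to 0.191 CPM, the usual unit of counts scaled to library size; floors and intervals cover counting error only. Whether libraries of one group were grown as separate cultures is not in the labels; p-values here reflect the variation among these samples only, and it may be technical. FTO siRNA 3 stood apart from its group: the chi-square of its counts over the degrees of freedom was 118 and 82.6 against FTO siRNA 1 and 2, which differed from each other by 20.4, while control pairs differed by 8.45 to 15.4. All 12 hepatocyte markers, albumin and alpha-fetoprotein among them, were detected in every library, with a sum of 23767 to 34210 CPM in controls and 16656 to 29184 CPM after FTO siRNA. FTO itself was 40.8, 37.96 and 38.76 CPM in controls 1, 2 and 3 and 11.2, 14.5 and 5.21 CPM in FTO siRNA 1, 2 and 3, which is 26.3% of control (log2 fold change −1.93 ± 0.32 SE; edgeR adjusted p = 0.00932). CPM values are TMM-scaled, log2 fold changes are FTO siRNA against control siRNA with their SE, and a gene is called at an edgeR quasi-likelihood adjusted p of at most 0.05 over all 15025 genes tested.

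Of the 10 genes, 4 fell after FTO siRNA (HMGA2, LIN28B, IGF2BP3 and IGF2BP1), 1 rose (LIN28A) and 5 were not called (IGF2BP2, HMGA1, IGF2, GPC3 and DLK1). The call rate among all tested genes was 11.4%, with 7.53% higher and 3.83% lower, against 10% higher and 40% lower among the 10. The 5 called genes were also the 5 whose libraries did not overlap between groups, a share of 50% beside 36.5% of all tested genes. The median log2 fold change of the 10 was −0.47, beside 0.04 over all tested genes. Because the 10 were chosen with earlier results of these data known, these contrasts are a description only. Which of the calls hold depends on the libraries used: without control 1 or without control 2 a single call was left (HMGA2), and without control 3 there were 2 (HMGA2 and LIN28A). Over all genes the calls went from 1707 to 330, 393 and 767 without control 1, 2 and 3. Calls lost in those fits, for single genes and for the lists below, are to be read beside these numbers. In bulk RNA, fewer cells of a kind and less RNA per cell cannot be told apart.

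**Figure D1:**
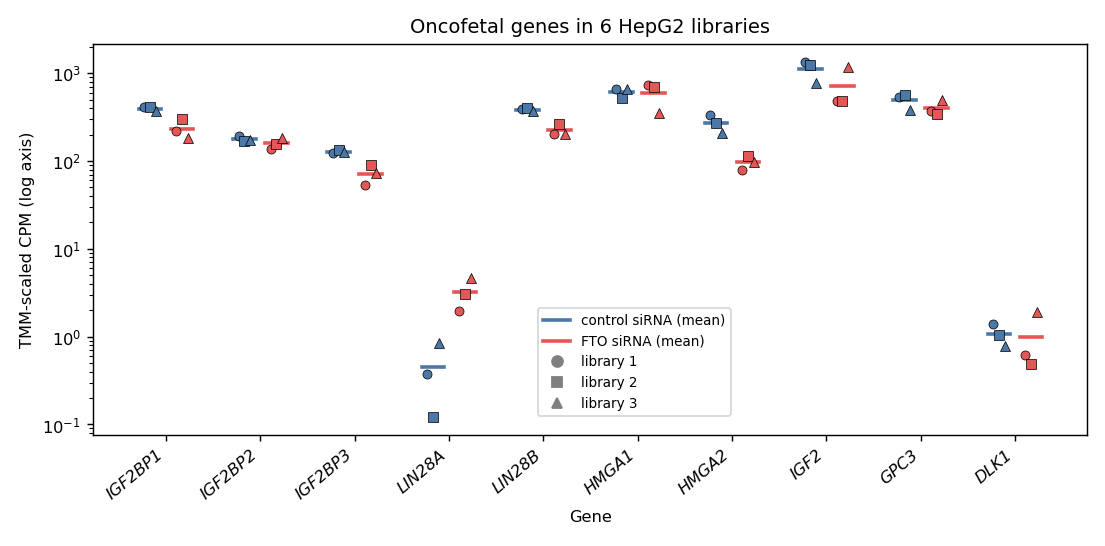
TMM-scaled CPM (log axis) of the 10 genes in each library; blue points are control siRNA, red points FTO siRNA, the marker shape gives the replicate number and bars are means of 3 libraries. HMGA2, LIN28B, IGF2BP1 and IGF2BP3 are lower in all 3 FTO siRNA libraries than in any control, LIN28A is higher, and IGF2, GPC3 and DLK1 have FTO siRNA 3 well above FTO siRNA 1 and 2.

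LIN28B (ENSG00000187772.6, chromosome 6) encodes the LIN28 paralog that is the usual one in liver cancer. It was 388.1, 400.5 and 368.6 CPM in controls 1, 2 and 3 and 202.8, 261.7 and 203.6 CPM in FTO siRNA 1, 2 and 3. The controls lay close together, and every FTO siRNA library was below every control. LIN28B fell to 57.7% of control, from 385.7 ± 16.1 to 222.7 ± 33.8 CPM (SD, n = 3 each; log2 fold change −0.79 ± 0.16; edgeR adjusted p = 0.0173). The call was lost without control 1, 2 or 3 (adjusted p = 0.0884, 0.0968 and 0.0581) and with trends on GC content and length removed (log2 fold change −0.58, adjusted p = 0.0568).

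LIN28A (ENSG00000131914.9, chromosome 1) encodes the paralog of embryonic and germ cells. Only 6, 2 and 14 reads were counted in controls 1, 2 and 3, and 32, 50 and 91 reads in FTO siRNA 1, 2 and 3. All FTO siRNA libraries were above all controls, and FTO siRNA 3 was the highest. The level rose from 0.449 ± 0.367 to 3.24 ± 1.34 CPM (SD, n = 3 each; log2 fold change 2.84 ± 0.54; edgeR adjusted p = 0.0151), and the pooled 173 reads against 22 give a ratio of 7.44 (95% counting interval 4.76 to 12.2). The call was lost without control 1 (adjusted p = 0.084) or control 2 (adjusted p = 0.0649), and without control 3, which held 14 of the 22 control reads, the log2 fold change was 3.66 (adjusted p = 0.0258). Control 2, with 2 reads, was below the floor of 3 counts. Its processed copies, LIN28AP1 and LIN28AP2, had 1 read between them over the 6 libraries.

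Markers of other cell types were read beside LIN28A, since it is not a hepatocyte gene. Of 12 pluripotent and germ cell markers 4 (DPPA4, ZFP42, PRDM14 and UTF1) had no count in any library, 1 had enough counts to be tested (DPPA2, log2 fold change 0.30, not called), and the sum was 5.58 to 6.40 CPM in controls and 4.88 to 9.66 CPM after FTO siRNA. POU5F1, which defines pluripotent cells, had 3 reads in each control and 3, 4 and 3 reads in FTO siRNA 1, 2 and 3. Some genes of still other cell types rose as LIN28A did. More genes had any count in FTO siRNA 1, 2 and 3 (24814, 24927 and 27140) than in the controls (22990 to 23339). The part of this wider detection in the rises was not tested. Among 8 tested immune markers 5 rose and none fell (sum 127.4 to 189.8 CPM in controls, 178.7 to 210.1 CPM after FTO siRNA). Most of that sum was LYZ and LCP1, which were not called; the 5 that rose summed to 3.05 to 3.56 CPM in controls and 15.0 to 24.5 CPM after FTO siRNA. Of these PTPRC, which marks leukocytes, had 0, 1 and 1 reads in controls and 20 in each FTO siRNA library. Among 6 tested fibroblast markers 3 rose and none fell, with a sum of 99.8 to 189.9 CPM in controls and 248.3 to 600.0 CPM after FTO siRNA. Those that rose were COL1A1, COL1A2 and TAGLN, while COL3A1, LUM and PDGFRB were not called. TAGLN overlapped between groups, at 34.3, 55.3 and 91.3 CPM in controls 1, 2 and 3 and 464.1, 283.7 and 90.0 CPM in FTO siRNA 1, 2 and 3. Of 5 tested kidney and cervical line markers KRT17 and LHX1 rose and none fell (list sum 61.6 to 67.3 CPM in controls, 62.5 to 107.2 CPM after FTO siRNA). Most of that sum was CDKN2A, which was not called. KRT17 and LHX1 together were 0.0634 to 0.731 CPM in controls and 2.555 to 5.70 CPM after FTO siRNA. No hepatocyte marker was called by edgeR; 2 of 12 had an unadjusted p under 0.05, APOB at 38.0% of control without overlap between groups (log2 fold change −1.40, adjusted p = 0.065) and APOA2 at 174.4% (0.80, adjusted p = 0.116). The share of all tested genes under that unadjusted p was not computed. The part of these genes' sources in the LIN28A reads was not tested.

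Even after the rise LIN28A remained the minor paralog. Per kilobase of annotated exon, the scale on which levels of different genes are compared here, LIN28A was 0.112 CPM per kb in controls and 0.809 after FTO siRNA, beside 64.3 and 37.1 CPM per kb for LIN28B. The log2 ratio of LIN28A to LIN28B within a library was −9.30, −10.78 and −8.14 in controls and −6.07, −5.81 and −4.86 after FTO siRNA, a difference of 3.82 ± 0.85 (SE). The 2 groups of ratios did not overlap, which with 3 against 3 libraries gives an exact two-sided permutation p = 0.1, the smallest possible (0.125 adjusted over the 5 ratios computed). With 1 library left out the difference was 3.14 to 4.46. With 5 instead of 0.5 added to each count it was 3.07.

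HMGA2 (ENSG00000149948.12, chromosome 12) encodes an AT-hook protein that bends DNA and is a textbook let-7 target. It was 333.3, 272.1 and 208.2 CPM in controls 1, 2 and 3 and 78.6, 113.8 and 97.7 CPM in FTO siRNA 1, 2 and 3. The controls were spread widely, yet the lowest of them stood well above the highest FTO siRNA library. HMGA2 fell to 35.7% of control, from 271.2 ± 62.5 to 96.7 ± 17.6 CPM (SD, n = 3 each; log2 fold change −1.49 ± 0.21; edgeR adjusted p = 0.00576). It had the smallest p of the 10 and was called in each of the 15 alternatives run (log2 fold change −1.67 to −1.20, adjusted p up to 0.0358). Genes on the opposite strand inside the locus had few reads; the one with most, RPSAP52, had 15, 8 and 12 reads in controls and 0, 5 and 3 after FTO siRNA.

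HMGA1 (ENSG00000137309.18, chromosome 6), the related AT-hook gene, was 660.5, 520.7 and 655.9 CPM in controls and 731.1, 699.3 and 356.1 CPM in FTO siRNA 1, 2 and 3. FTO siRNA 1 and 2 were above all controls and FTO siRNA 3 was below them. The fold change was −0.04 ± 0.27 (edgeR adjusted p = 0.941), and without FTO siRNA 3 it was 0.20 (adjusted p = 0.279). HMGA1 has 8 named pseudogene copies, which together share part of its sequence, and none of them had more than 7 reads in a library. The log2 ratio of HMGA2 to HMGA1 was −3.71, −3.66 and −4.38 in controls and −5.94, −5.35 and −4.59 after FTO siRNA. It was lower in all 3 FTO siRNA libraries than in any control (difference −1.37 ± 0.45 SE; exact permutation p = 0.1, adjusted p = 0.125), and with 1 library left out the difference was −1.73 to −1.05.

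IGF2BP1 (ENSG00000159217.8, chromosome 17) encodes an mRNA-binding protein that is nearly silent in adult liver. It was 413.2, 407.6 and 366.5 CPM in controls and 222.3, 299.2 and 181.8 CPM in FTO siRNA 1, 2 and 3. All FTO siRNA libraries were below the controls, with FTO siRNA 2 the nearest to them. IGF2BP1 fell to 59.2% of control, from 395.8 ± 25.5 to 234.4 ± 59.6 CPM (SD, n = 3 each; log2 fold change −0.76 ± 0.20; edgeR adjusted p = 0.0441). That value is close to the threshold, and the call was lost without control 1, 2 or 3 (adjusted p = 0.159, 0.163 and 0.0984), without FTO siRNA 1 (0.0975), with the replicate block (0.0636) and with GC content and length trends removed (0.091).

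IGF2BP3 (ENSG00000136231.12, chromosome 7), a paralog used as a marker of aggressive tumours, was 124.4, 132.6 and 126.9 CPM in controls and 53.0, 89.6 and 73.4 CPM in FTO siRNA 1, 2 and 3. The controls were nearly equal, and the FTO siRNA libraries were lower and more spread. IGF2BP3 fell to 56.3% of control (128.0 ± 4.17 to 72.0 ± 18.3 CPM, SD, n = 3 each; log2 fold change −0.83 ± 0.19; edgeR adjusted p = 0.0299). The call was lost without control 1, 2 or 3 (adjusted p = 0.11, 0.122 and 0.0914). Of the 50-base words of its transcript 35.0% also lie in MALSU1, a mitochondrial ribosome assembly gene that overlaps it on the opposite strand, so reads of both genes cannot be told apart there if strand was not used. MALSU1 had 564, 560 and 531 reads in controls and 640, 595 and 440 in FTO siRNA 1, 2 and 3.

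IGF2BP2 (ENSG00000073792.14, chromosome 3), the paralog that is also made in adult tissues, was 190.5, 167.9 and 172.6 CPM in controls and 135.8, 157.8 and 184.4 CPM in FTO siRNA 1, 2 and 3. FTO siRNA 3 lay among the controls and the other two below them. The fold change was −0.15 ± 0.16 (edgeR adjusted p = 0.571), and IGF2BP2 was called in none of the 15 alternatives.

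Within the libraries, the ratio of IGF2BP1 to IGF2BP3 overlapped between groups, and the ratios of both to IGF2BP2 did not. The log2 ratio of IGF2BP1 to IGF2BP3 was 1.53 ± 0.10 in controls and 1.61 ± 0.38 after FTO siRNA (SD, n = 3 each), a difference of 0.08 ± 0.23 (SE; exact permutation p = 0.7); it was 0.28 without FTO siRNA 3 (exact permutation p = 0.1) and −0.10 without FTO siRNA 1. That of IGF2BP2 to IGF2BP3 went from 1.31 ± 0.14 to 2.01 ± 0.30, a difference of 0.70 ± 0.19, and that of IGF2BP1 to IGF2BP2 from 0.22 ± 0.10 to −0.41 ± 0.49, a difference of −0.62 ± 0.29. Without FTO siRNA 3 the latter difference was −0.34. Both pairs with IGF2BP2 had groups that did not overlap, with exact permutation p = 0.1 and adjusted p = 0.125, the limit of this design. In controls IGF2BP1 was above IGF2BP2 per kilobase (43.5 against 37.4 CPM per kb). After FTO siRNA the order was turned (25.7 against 33.7 CPM per kb), with ranges that overlapped.

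**Figure D2:**
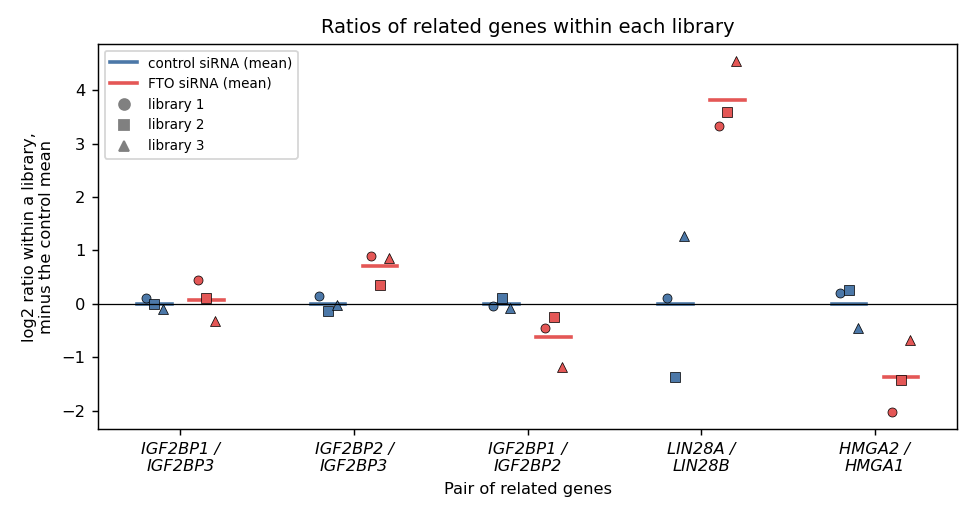
Log2 ratio of the length-scaled counts of related genes within each library, less the mean of the controls; blue points are control siRNA, red points FTO siRNA, shapes give the replicate number and bars the means. The ratio of IGF2BP1 to IGF2BP3 overlaps between groups, and the other 4 ratios do not, with LIN28A to LIN28B shifted by 3.82 and HMGA2 to HMGA1 by −1.37.

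IGF2 (ENSG00000167244.16, chromosome 11) encodes the imprinted fetal growth factor and is a classic IGF2BP-bound mRNA. It was 1350, 1227 and 773.8 CPM in controls 1, 2 and 3 and 480.4, 476.9 and 1171 CPM in FTO siRNA 1, 2 and 3. FTO siRNA 1 and 2 were below every control, while FTO siRNA 3 lay among the controls. The fold change was −0.65 ± 0.38 (edgeR adjusted p = 0.301). Without FTO siRNA 3 it was −1.25 (adjusted p = 0.00329), in a fit that called 14.1% of all tested genes lower. INS-IGF2, which shares exons with it, was listed at 0 in all libraries. IGF2-AS on the opposite strand had 35, 24 and 11 reads in controls and 16, 10 and 42 reads after FTO siRNA.

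GPC3 (ENSG00000147257.12, chromosome X) encodes glypican 3, a cell surface proteoglycan used as a liver cancer marker. It was 538.6, 562.8 and 376.1 CPM in controls and 371.5, 346.1 and 501.5 CPM in FTO siRNA 1, 2 and 3. FTO siRNA 1 and 2 were just below control 3, and FTO siRNA 3 was above it. The fold change was −0.28 ± 0.22 (edgeR adjusted p = 0.445; without FTO siRNA 3 it was −0.48, adjusted p = 0.053).

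DLK1 (ENSG00000185559.12, chromosome 14), an imprinted surface protein of fetal hepatoblasts, was near the floor, with 22, 17 and 13 reads in controls and 10, 8 and 37 reads in FTO siRNA 1, 2 and 3. FTO siRNA 3 had the most reads of all 6 libraries and FTO siRNA 1 and 2 the fewest. The fold change was −0.04 ± 0.53 (edgeR adjusted p = 0.969), and the pooled reads give a ratio of 1.00 with a 95% counting interval of 0.672 to 1.49. Without FTO siRNA 3 the fold change was −0.96 (adjusted p = 0.119).

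FTO siRNA 3 was above FTO siRNA 1 and 2 for IGF2, GPC3 and DLK1, and also for IGF2BP2 and LIN28A. From high to low, IGF2 ran control 1, control 2, FTO siRNA 3, control 3, FTO siRNA 1 and FTO siRNA 2, and the summed hepatocyte markers ran in the same order (34210, 33426, 29184, 23767, 20076 and 16656 CPM). GPC3 and AFP, another oncofetal liver gene, differed from that order only in having control 2 above control 1. HMGA2, LIN28B, IGF2BP1 and IGF2BP3 had all controls above all FTO siRNA libraries. These orders were read after the values were seen, and their part in the results was not tested.

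**Figure D3:**
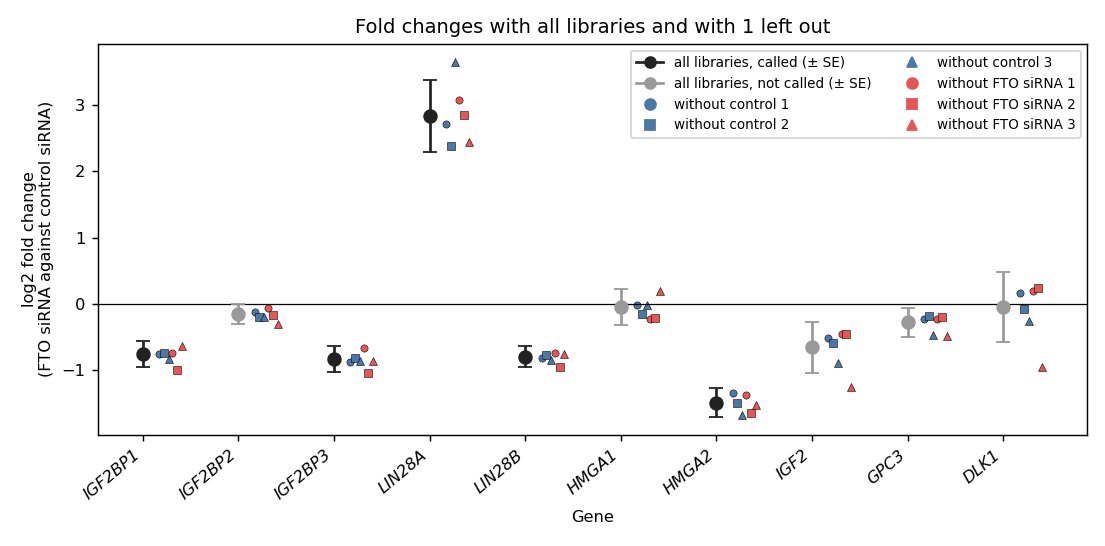
Log2 fold change of each gene with all libraries (large points with SE; black called, grey not called) and with 1 library left out (small points; blue a control, red an FTO siRNA library). HMGA2, LIN28B, IGF2BP1 and IGF2BP3 stay below 0 and LIN28A above 0 throughout, while IGF2 goes from −0.65 to −1.25 and DLK1 from −0.04 to −0.96 without FTO siRNA 3.

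By level per kilobase of exon the genes spanned a wide range in controls. HMGA1 was highest (263.2 ± 34.1 CPM per kb, SD, n = 3), followed by GPC3 (181.7 ± 37.5) and IGF2 (160.0 ± 43.5), then LIN28B (64.3 ± 2.68), IGF2BP1 (43.5 ± 2.80) and IGF2BP2 (37.4 ± 2.51), then HMGA2 (17.6 ± 4.06) and IGF2BP3 (15.0 ± 0.490), and last DLK1 (0.202 ± 0.0576) and LIN28A (0.112 ± 0.0915). Neighbours in that order overlapped between libraries only for GPC3 with IGF2, HMGA2 with IGF2BP3 and DLK1 with LIN28A. The level of HMGA2 is spread over 15403 annotated exon bases, more than for any other of the 10, which include those of alternative transcripts. After FTO siRNA HMGA2 was below IGF2BP3 (6.28 ± 1.14 against 8.46 ± 2.15 CPM per kb, with overlap) and LIN28A was above DLK1 (0.809 ± 0.334 against 0.189 ± 0.145, without overlap).

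Known let-7 targets, a list that holds 7 of the 10 genes, moved in both directions. Of 27 tested genes 5 fell and 2 rose, with a median log2 fold change of −0.12. Without the 7 members, 20 genes were left, of which 1 fell and 1 rose (median −0.10). The one that fell was TRIM71, a let-7 target and ubiquitin ligase of early development, with 2689, 2792 and 2087 reads in controls and 900, 1419 and 1117 reads after FTO siRNA (155.5 ± 25.5 to 66.8 ± 18.0 CPM, SD, n = 3 each; log2 fold change −1.22 ± 0.22; edgeR adjusted p = 0.0119). TRIM71 held 8 seed matches, and no tested coding gene held more. The one that rose was MYC (155.4 ± 16.4 to 267.0 ± 25.4 CPM, SD, n = 3 each; log2 fold change 0.78 ± 0.15; edgeR adjusted p = 0.0153). MYCN, DICER1 and DNA2 had negative fold changes without overlap between groups but were not called (−1.39, −0.88 and −0.73, adjusted p = 0.0575, 0.066 and 0.0588), and CDC34 and THBS1 had positive ones (0.48 and 0.98, adjusted p = 0.0575 and 0.0565); these 5 were named after their values were seen. The list's 7 calls became 14 without FTO siRNA 3, 1 without control 1 or 2, and 4 without control 3. Over all genes the fit without FTO siRNA 3 called 4582 of 15290.

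**Figure D4:**
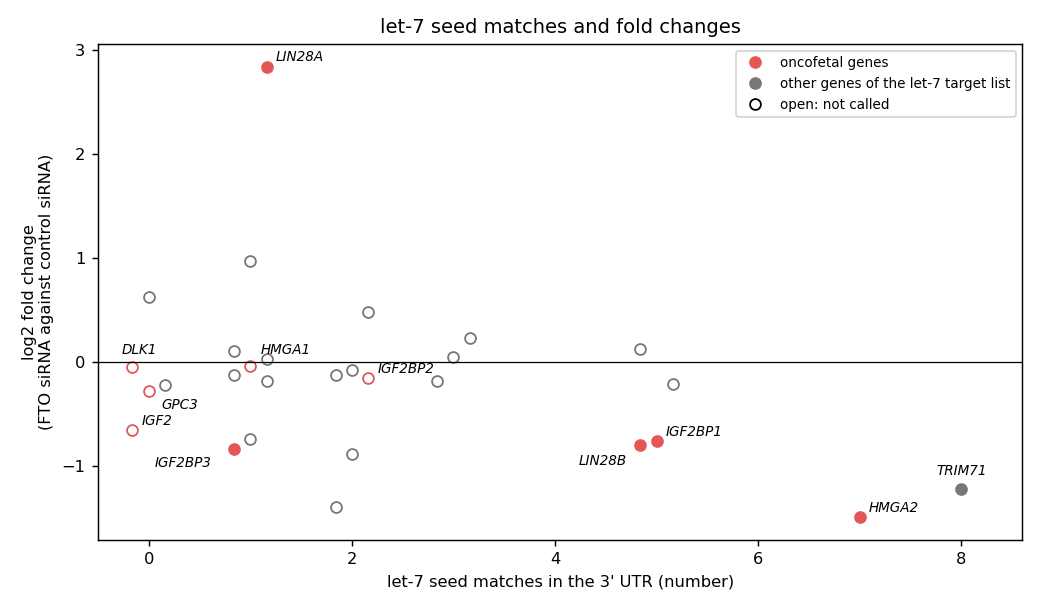
Log2 fold change against the number of let-7 seed matches in the 3′ UTR for the 10 genes (red) and the tested genes of the let-7 target list for which a transcript was examined (grey); filled points are called, and points with the same number of matches are spread sideways. HMGA2 (7 matches), LIN28B and IGF2BP1 (5 each) and TRIM71 (8) are below 0, ARID3B and NR6A1 with 5 matches each are near 0, and LIN28A with 1 match is at 2.84.

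Genes with as many matches were also found among those not called. ARID3B, a DNA-binding protein with 5 matches, was 85.5 ± 7.89 CPM in controls and 93.3 ± 12.8 CPM after FTO siRNA, and NR6A1, a nuclear receptor of germ cells with 5 matches, was 71.2 ± 9.43 and 61.6 ± 11.7 CPM (SD, n = 3 each). Neither was called (edgeR log2 fold change 0.13 ± 0.15, adjusted p = 0.635, and −0.21 ± 0.18, adjusted p = 0.494). The matches of ARID3B included no 8mer, and those of NR6A1 included 2. IGF2BP3 with 1 match fell, and LIN28A with 1 match rose.

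Among 15 tested genes that process let-7 or act with LIN28, TRIM71 was the one call (lower; median −0.36), and DROSHA, DGCR8, XPO5 and the uridylating enzymes TUT4 and TUT7 were not called. At an unadjusted edgeR p under 0.05 there were 8 of the 15, all with lower values and no overlap between groups: TRIM71, DROSHA, DGCR8, XPO5, DICER1, AGO1, DIS3L2 and DHX9. The share of all tested genes under that p was not computed, and 36.5% of all tested genes had no overlap between groups. Without FTO siRNA 3 there were 8 calls in this list, in a fit that called 4582 of 15290 genes, and none without control 1 or control 2. The let-7 host transcript MIRLET7BHG had at most 2 reads in a library and was not tested. Of the other microRNA host transcripts in the list, MIR100HG had at most 1 read in a library. MIR99AHG was tested and not called, with 138, 98 and 108 reads in controls and 77, 94 and 189 after FTO siRNA (log2 fold change −0.06, edgeR adjusted p = 0.919). In the precursors, the LIN28-bound letters GGAG occur in 9 of 12 let-7 family hairpins of the RefSeq table, beside 43.4% of its 1562 hairpins.

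mRNAs known to be bound by IGF2BP proteins were divided. Of 20 tested, 3 fell (HMGA2, LIN28B and the proliferation marker MKI67) and 3 rose (MYC, the hyaluronan receptor CD44 and PDLIM7), with a median of 0.03. Without the members, 17 were tested, of which 1 fell and 3 rose (median 0.14). MKI67 went from 859.1 to 348.6 CPM (log2 fold change −1.30; edgeR adjusted p = 0.015), CD44 from 45.6 to 176.5 CPM (1.95 ± 0.35; adjusted p = 0.0123) and PDLIM7 from 113.2 to 214.0 CPM (0.92; adjusted p = 0.0416). H19, the imprinted RNA next to IGF2, had 5, 3 and 1 reads in controls and 5, 3 and 9 after FTO siRNA and was not tested. The 6 calls became 10 without FTO siRNA 3, in a fit that called 4582 of 15290 genes, and 2, 1 and 3 without control 1, 2 and 3.

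Fetal liver and hepatic progenitor genes, a list with 8 of the 10 genes in it, had 6 lower and 2 higher among 23 tested (median −0.28). Outside the members 15 were tested, of which TRIM71 and PEG10 fell and SPINK1 rose (median −0.07). PEG10, an imprinted gene derived from a retrotransposon, went from 2548 to 831.6 CPM (log2 fold change −1.62 ± 0.26; edgeR adjusted p = 0.0087). SPINK1, which inhibits trypsin, rose from 106.3 to 260.3 CPM (log2 fold change 1.29; adjusted p = 0.0239). Without control 1, 2 or 3 the 8 calls of this list became 2, 1 and 4. PEG10 was also the one call among 15 tested imprinted growth genes (median −0.04). In that list 6 were called without FTO siRNA 3, in a fit that called 4582 of 15290 genes, and none without control 2.

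The IGF receptors and their signalling genes held no call: of 17 tested, none passed, with a median of −0.13. IRS2, an adaptor of the insulin and IGF receptors, had the smallest p, at 7.91 CPM in controls and 16.8 CPM after FTO siRNA (log2 fold change 1.08; edgeR adjusted p = 0.0907), followed by the adaptor GAB1 at 68.7 and 49.1 CPM (−0.48; adjusted p = 0.185). At an unadjusted edgeR p under 0.05 there was 1 gene of the list, IRS2. DESeq2 called 1 gene of the list, beside 2509 over all genes. Without FTO siRNA 3 edgeR called 4, all lower. That fit called 4582 of 15290 genes, with 14.1% of all tested genes lower. High mobility group genes other than the HMGA pair had 1 call among 13 tested, HMGN4, which rose from 20.5 to 31.2 CPM (0.61; adjusted p = 0.0302). At an unadjusted edgeR p under 0.05 there were 7 genes of the list, HMGA2 and 5 others with lower values and HMGN4. For that p no share over all tested genes was computed. With HMGA2 the list had 2 calls, 6 without FTO siRNA 3 and 1 without FTO siRNA 2 or any control. Without FTO siRNA 1 there were 2 calls, both lower. Of the fits with 1 library left out, only that without FTO siRNA 3 had a higher call in this list, so the HMGN4 call was lost in the others. In the list of glypicans, DLK and Notch genes GPC1 (3.87 to 11.8 CPM; 1.60; adjusted p = 0.019) and HEY1 (1.20 to 4.69 CPM; 1.98; adjusted p = 0.0211) rose, none of 15 fell, and the median was 0.71. GPC1 is another glypican and HEY1 a Notch target gene. Neither the GPC1 nor the HEY1 call was left without control 1 or control 2, and without FTO siRNA 1 or 2 the list had 1 call.

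**Figure D5:**
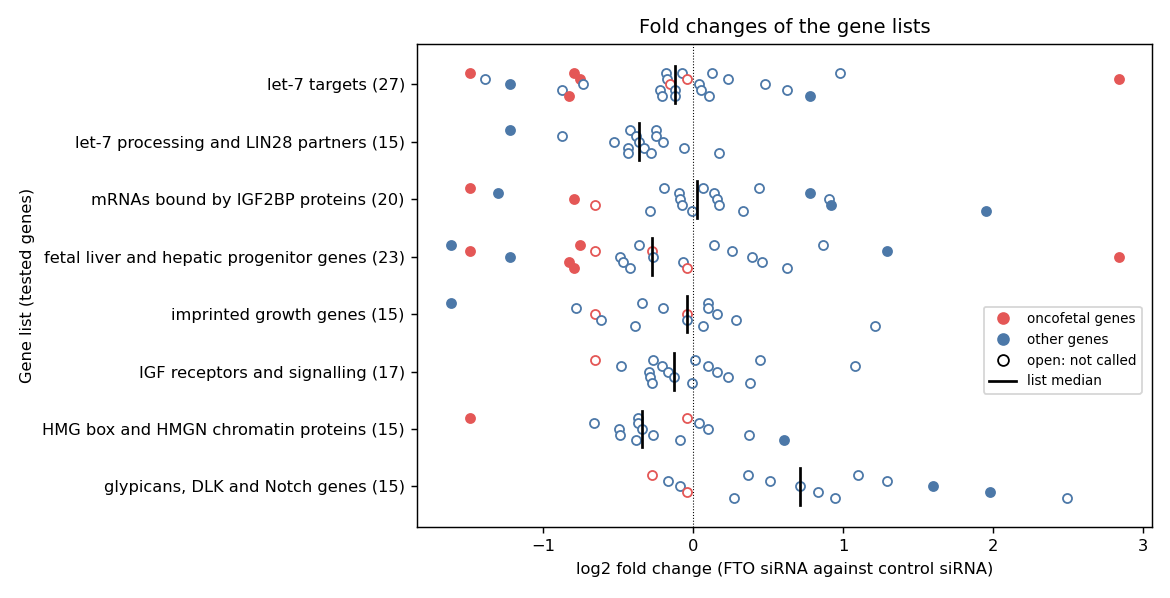
Log2 fold change of every tested gene of the 8 lists, with the number tested in brackets; red points are the 10 oncofetal genes, blue points other genes, filled points are called and black bars are list medians. The let-7, IGF2BP and fetal liver lists have called genes on both sides of 0, the list of glypicans, DLK and Notch genes has the highest median (0.71), and no gene of the IGF list is called.

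The tested coding genes whose pattern over the 6 libraries was most like that of HMGA2, by Pearson r of log2 CPM among 11293 genes, were EHHADH, a peroxisomal fatty acid enzyme (0.998), ARHGAP12 (0.997), and NBPF9, one of a family of near-identical copies (0.997). The measure follows the group difference and is given as a description; 303 genes reached 0.95 or more, LIN28B among them (0.964). IGF2BP3 and IGF2BP1 followed with 0.929 and 0.906, and HMGA1 was lowest of the members compared (0.103).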

How the data were processed

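The authors deposited raw read counts per Ensembl gene, 1 table per library, from total RNA extracted with Trizol, per the labels' protocols. TopHat2 2.0.11, HTSeq, hg19 and GRCh37 are named in the submitters' processing notes; strand use and counting settings are not given in sources used here. Of 60483 identifiers 56753 matched GENCODE 29, the 10 members by identifier but not by version; no coordinates are given because builds differ. Members and lists were chosen with earlier results of these data known. The transcript rule for 3′ UTRs was set after a first choice, the longest 3′ UTR, had been seen.

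Counts were tested with edgeR 4.0.16 in R 4.3.3 (filterByExpr, TMM, glmQLFit with legacy=FALSE, glmQLFTest on the group, two-sided, Benjamini-Hochberg over 15025 genes, threshold 0.05); the steps were tested on simulated data. The SE is the log2 fold change over the root of F. Named were all members, FTO, genes overlapping or copied from members, up to 4 called genes per direction of a list (the 2 with the smallest p where none was called), and the 3 genes most like the called member with the smallest p. Paralog ratios used counts plus 0.5 per exon base, with counts plus 5 as an alternative. Alternatives were scaling by RLE or upper quartiles, no composition factors, leaving out the filter, 1 CPM in 3 libraries, DESeq2 1.42.0, limma-voom 3.58.1, the replicate block, lowess trends on GC content and length, and each library left out.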

Additional observations from a re-analysis of the deposited data

How the results depend on the processing

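HMGA2 was called in each of the 15 alternatives and LIN28A in 13, IGF2BP3 in 12, LIN28B in 11 and IGF2BP1 in 9; IGF2 was called in 1. Over all genes 1707 were called, 2509 with DESeq2, 1041 with the replicate block and 330 to 4582 with 1 library left out. The 4582 came without FTO siRNA 3. The 5 members called became 3 with GC content and length trends removed and 1 to 6 with 1 library left out. DESeq2 called 12 let-7 targets (7 in edgeR), 3 let-7 processing genes (1), 2 imprinted genes (1), 1 IGF signalling gene (0) and 5 high mobility group genes (2). The high mobility group count was 4 without composition factors and with trends removed, and 1 without the filter and with the replicate block; that of let-7 processing genes was 2 without the filter and with trends removed. With 1 library left out the calls ran from 1 to 14 in let-7 targets, 0 to 8 in let-7 processing genes, 1 to 10 in IGF2BP-bound mRNAs, 1 to 12 in fetal liver genes, 0 to 6 in imprinted genes, 0 to 4 in IGF signalling, 1 to 6 in high mobility group genes and 0 to 2 in glypican, DLK and Notch genes; in the first 7 of these lists the most calls came without FTO siRNA 3. With 1 library left out the log2 fold change of HMGA1 ran from −0.23 to 0.20 (positive without FTO siRNA 3) and that of DLK1 from −0.96 to 0.25 (positive without control 1, FTO siRNA 1 or FTO siRNA 2); that of DLK1 was 0.018 with upper quartile scaling. The cause was not tested. Same-numbered libraries correlated by −0.14, −0.06 and −0.25 in their deviations from the group means. Differently numbered libraries were not compared, so whether same-numbered libraries belong together cannot be told from these values. LIN28A and DLK1 had few reads, and libraries of one group also differed. LIN28A had 6, 2 and 14 reads in controls 1, 2 and 3, and DLK1 had 10, 8 and 37 in FTO siRNA 1, 2 and 3.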

Other observations

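Tested coding genes other than the 10 were grouped by their number of let-7 seed matches, as a description with no test. Of 10459 genes without a match 3.28% were lower and 8.10% higher, of 1669 with 1 match 4.55% and 6.77%, and of 333 with 2 or 3 matches 6.91% and 4.80%. Of 22 with 4 or more, 3 genes (13.6%) were lower and none higher. The median 3′ UTR of these classes was 884, 2506, 4903 and 6208 bases. With trends on GC content and length removed, the lower shares were 3.47%, 3.77%, 5.11% and 9.09%, and the last rests on 2 genes. The median log2 fold changes of the 4 classes were 0.06, −0.03, −0.07 and −0.04, and with the trends removed 0.02, 0.03, 0.11 and 0.07, so that the medians of the classes with matches changed sign.

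The letters GGAC, the core of the usual m6A sequence context, occurred 4.71 times per kilobase in the transcript of IGF2BP1, 3.80 in IGF2BP2, 3.06 in IGF2BP3, 2.68 in HMGA2, 1.75 in LIN28A, 1.09 in LIN28B, 4.69 in HMGA1, 4.67 in GPC3, 3.98 in IGF2 and 2.96 in DLK1, so that 5 of the 10 were above and 5 below the median of 3.72 over the tested coding genes. Searched on the mRNA strand only, these counts were computed after the fold changes were known, and m6A itself was not measured in these libraries. AL009174.1, a processed pseudogene on the opposite strand within GPC3, had 12, 14 and 7 reads in controls and 43, 37 and 45 after FTO siRNA.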
